A study of Mus musculus with 3 samples.

Results

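The microRNAs of the imprinted Dlk1-Dio3 region, without the group that lies antisense to Rtl1, were examined in mouse neural stem cells (NSCs), embryonic stem cells (ESCs) and embryonic fibroblasts (MEFs). They were taken by the number in their name, whatever letter, arm or star followed it, which gave 60 of the 709 microRNA assays, 45 on plate 1 and 15 on plate 2. The 60 assays read 42 hairpin genes, and RefSeq places all 42 on mouse chromosome 12. Each cell type was 1 sample, measured in 2 PCR runs. The NSCs came from fetal forebrain and had been grown on Matrigel with FGF-basic and PDGF-AA, and no treatment or genotype is named for any sample. The labels give the ESCs and MEFs by cell type alone. The design text states that total RNA was pooled in equal amounts, without saying from what, and nothing names separate cultures, so the spread between runs is PCR error and no p-value can be given.

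The Dlk1-Dio3 region is imprinted: the protein-coding genes Dlk1, Rtl1 and Dio3 are expressed from the chromosome inherited from the father, and the noncoding RNAs Meg3, Rian and Mirg, with the microRNAs, from the chromosome inherited from the mother. Many of the microRNAs are known from brain, where neuronal activity raises the precursor of the group from miR-379 to miR-410 through the transcription factor Mef2. In mouse stem cells the region is known as a mark of full pluripotency, since it is silenced in some reprogrammed lines. A hairpin gives a mature microRNA from its 5′ arm (5p) or its 3′ arm (3p), and the star in older names marks the arm held to be the less abundant one. The seed, bases 2 to 8 of the mature strand, leads the pairing with target RNAs.

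Mature sequences could be matched in RefSeq (GRCm38.p6) for 57 of the 60 assays, 19 under the same name and 38 under the newer name with its arm. The genes run along the plus strand of chromosome 12 over 180.1 kb, from miR-770-5p at chr12:109563710-109563731 to miR-410 at chr12:109743764-109743784. miR-379 lies at chr12:109709065-109709085 and miR-382 at chr12:109733781-109733802. The sequences printed first belong to the microRNAs called lower in NSCs against MEFs and ESCs alike, with the seed in capitals.
miR-337-3p: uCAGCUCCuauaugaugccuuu
miR-540-3p: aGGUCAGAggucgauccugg
miR-379: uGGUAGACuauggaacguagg
miR-411: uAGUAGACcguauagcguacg
miR-411*: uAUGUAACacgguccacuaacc
miR-299*: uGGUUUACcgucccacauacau
miR-380-5p: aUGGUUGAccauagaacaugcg
miR-758: uUUGUGACcugguccacua
miR-382: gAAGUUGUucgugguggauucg
miR-154: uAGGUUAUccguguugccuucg
miR-496: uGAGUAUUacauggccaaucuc
miR-541: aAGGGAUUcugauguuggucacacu
miR-409-3p: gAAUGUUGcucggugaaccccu
miR-409-5p: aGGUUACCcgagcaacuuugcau

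The next sequences are those of the arms that share a hairpin with one of these but were not called, and of miR-494, miR-370 and miR-134, which are followed below because of their level or their role.
miR-337-5p: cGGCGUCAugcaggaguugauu
miR-540-5p: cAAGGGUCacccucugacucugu
miR-299: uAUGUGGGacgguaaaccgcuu
miR-380-3p: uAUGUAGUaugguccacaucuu
miR-382*: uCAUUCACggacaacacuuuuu
miR-485*: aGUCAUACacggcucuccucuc
miR-154*: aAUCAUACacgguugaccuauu
miR-494: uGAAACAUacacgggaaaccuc
miR-370: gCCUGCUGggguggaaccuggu
miR-134: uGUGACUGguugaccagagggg

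The last ones are near relatives within the region, shown because an assay may read more than 1 of them.
miR-376a: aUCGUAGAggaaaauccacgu
miR-376b: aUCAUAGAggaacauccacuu
miR-376b*: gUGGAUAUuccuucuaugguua
miR-376c*: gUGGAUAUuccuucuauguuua
miR-300: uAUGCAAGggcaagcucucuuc
miR-381: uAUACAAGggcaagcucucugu

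Among the 57 sequences there were 56 distinct seeds. The only shared seed was UGGAUAU, in miR-376b* and miR-376c*, which differ by the single substitution G19U, counted from the 5′ end with the base of miR-376b* first. miR-376a and miR-376b differ by G4A, A13C and G20U, so that their seeds differ at base 4. miR-300 and miR-381 differ by G4A, U21G and C22U. miR-379 and miR-411, which share the last 6 bases of the seed, differ at 7 bases, with G2A in the seed. Whether the assays of these relatives separate them was not tested.

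The level of a microRNA is given as a delta Ct, which is the Ct of a well (the PCR cycle at which product is detected) less the average Ct of 3 reference RNAs (U6, RNU43 and U1) on the same plate in the same sample. A delta Ct higher by 1 cycle stands for about 2-fold less RNA, and log2 folds are differences in delta Ct, with an error from the runs alone. Over all assays, 451 of 709 were at a mean Ct of at most 32 in NSCs, 382 in ESCs and 515 in MEFs, and above that limit the runs spread more widely. Of the Dlk1-Dio3 microRNAs, 26 of 60 (43.3%) were at a mean Ct of at most 32 in NSCs, 38 (63.3%) in ESCs and 48 (80.0%) in MEFs. Over all assays the shares were 63.6%, 53.9% and 72.6%. So NSCs held the smallest share of the Dlk1-Dio3 microRNAs at such a Ct, whereas over all assays ESCs did. The median delta Ct of the Dlk1-Dio3 microRNAs was 8.37 in NSCs, 5.26 in ESCs and 5.02 in MEFs.

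**Figure D1:**
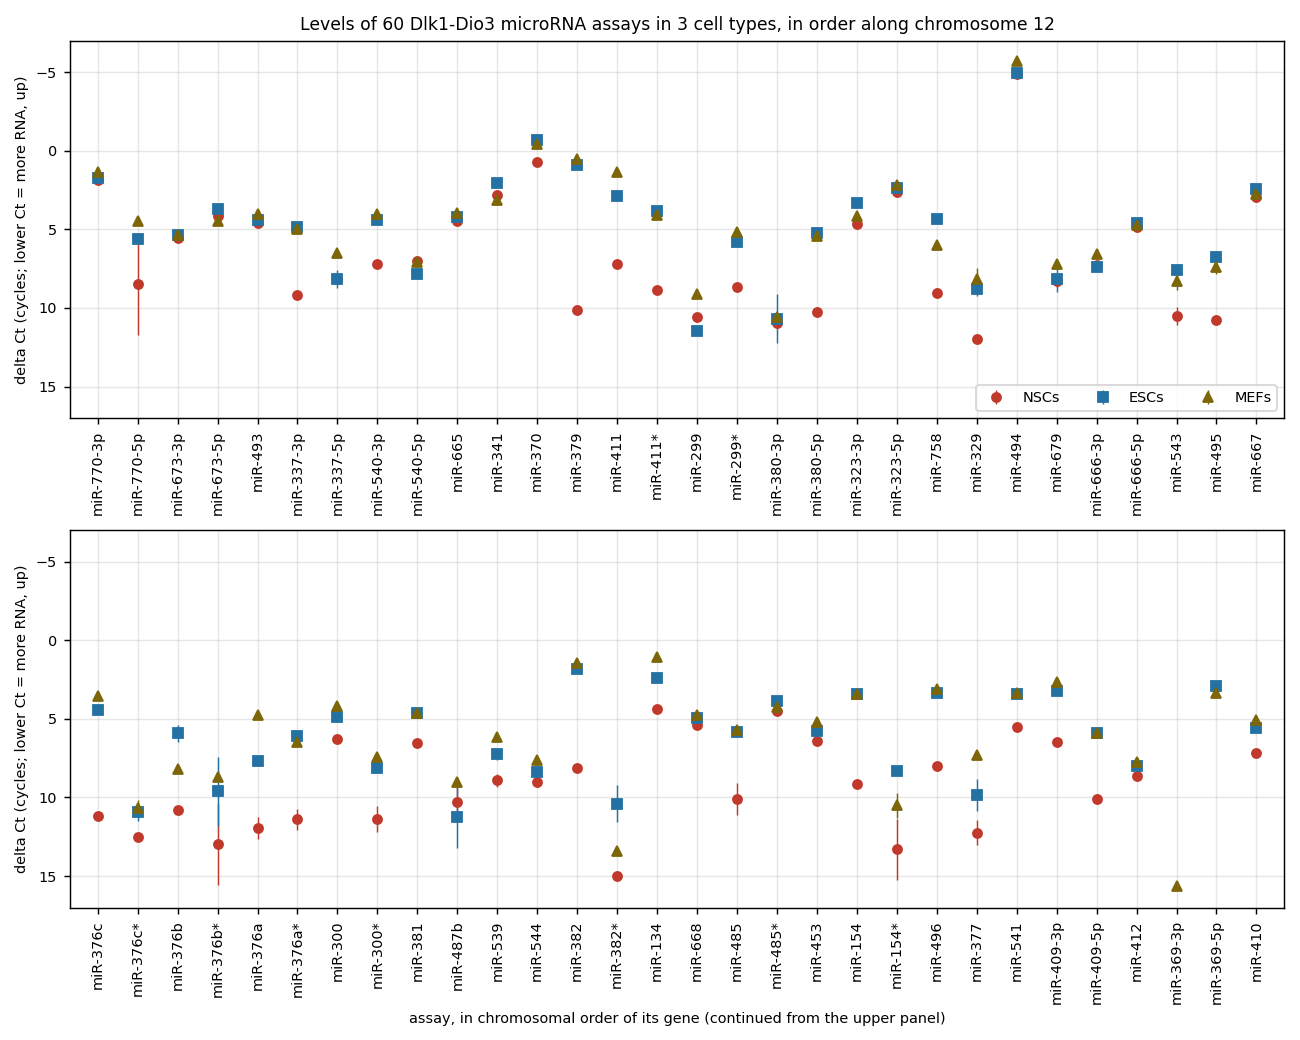
Delta Ct (cycles, axis turned so that more RNA is up) of the 60 assays in NSCs (circles), ESCs (squares) and MEFs (triangles), in chromosomal order, continued in the lower panel. Points are means of the PCR runs and bars reach from run to run; the points of the 3 samples lie close together for miR-494 at the top, and the NSC point of miR-379 lies at 10.12 against 0.93 in ESCs.

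Calls of lower or higher required a 4-fold difference, runs that stayed apart between the samples, and an average Ct no later than 32 where the level was higher. Against MEFs, 26 of the 58 Dlk1-Dio3 microRNAs measured in both samples were lower in NSCs and 0 were higher. Over all 685 microRNAs 13.9% were called lower and 1.75% higher. The median log2 fold of the Dlk1-Dio3 microRNAs was -2.15, beside -0.48 over all microRNAs, and 55 of 58 were below 0. Against ESCs, 17 of 58 were lower and 0 were higher, with 14.9% lower and 2.95% higher over all 678 microRNAs. The median was -1.94, beside -0.42 over all, and 54 of 58 were below 0. Both comparisons use the same NSC sample, so they are not independent of each other. Restricted to those with an average Ct up to 32 in each of the compared samples, 8 of 26 were lower than in MEFs and 5 of 24 than in ESCs, beside 41 of 427 and 46 of 324 over all. The medians were then -0.64 and -0.71, beside -0.35 and -0.49 over all. In such bulk RNA, fewer cells with a microRNA and less of it per cell cannot be told apart.

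The deposited MEF Ct values differ from a second set of MEF Ct values for the same assays in the study's supplementary material, and nothing in the sources used here says which is right. With the second set, very few of the Dlk1-Dio3 microRNAs would be called lower in NSCs than in MEFs, their median would lie near no difference, and many would be called higher in ESCs than in MEFs. The comparison of NSCs with ESCs uses no MEF value. Every MEF value given here is from the deposited table.

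Between ESCs and MEFs the levels were closer. Of 59 microRNAs measured in both, 2 were lower in ESCs (miR-376a and miR-377, the second with a Ct in only 1 MEF run), 1 was higher (miR-376b), and 45 lay within 2-fold. Over all 679 microRNAs 3.24% were lower and 5.3% higher, and 421 lay within 2-fold. The median log2 fold of the Dlk1-Dio3 microRNAs was -0.26, beside -0.11 over all, and its direction turned when miR-16 served as reference (1.57) and with late wells set to a Ct of 32 (0.021).

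NSCs had the lowest level of the 3 samples for 52 of the 58 microRNAs measured in all of them, which is 89.7%, against 53.9% of all 677 microRNAs. NSCs had the highest level for 1 of the 58, miR-540-5p, beside 141 of all 677. MEFs had the highest level for 38 and ESCs for 19, beside 281 and 255 over all. The order depended on the reference: NSCs were lowest for 34 of the 58 with RNU43 alone and for 36 with the mean of the microRNAs, beside 133 and 200 of all 677. With U6 alone it was 55, with U1 alone 55 and with miR-16 58, beside 486, 477 and 601 of all 677.

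**Figure D2:**
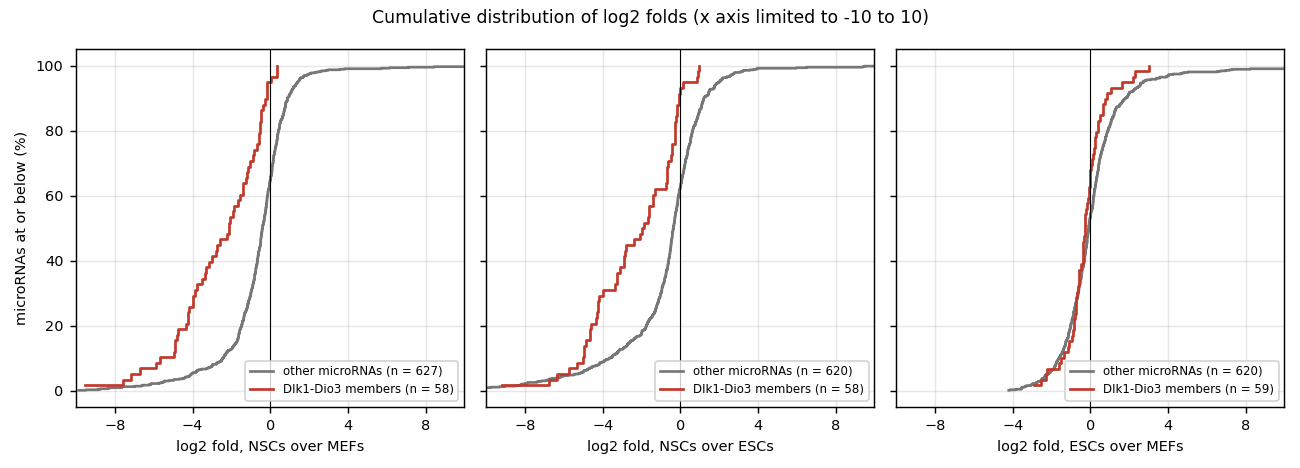
Cumulative share (%) of microRNAs at or below each log2 fold, for the Dlk1-Dio3 microRNAs (red) and all others (grey), in NSCs over MEFs, NSCs over ESCs and ESCs over MEFs. The red curve lies to the left of the grey one over most of its range in the first 2 panels, with medians of -2.15 against -0.40 and -1.94 against -0.36, and near it in the third.

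Markers of the cell types were read from the same plates. Of the 4 neural markers, miR-9, miR-9* and miR-219 were called higher in NSCs against each of the other samples and miR-124 was not. Of the 11 markers of ESCs, 10 were called lower in NSCs than in ESCs and 10 higher in ESCs than in MEFs. The 5 fibroblast markers (miR-143, miR-145, miR-199a-3p, miR-199a-5p and miR-214) moved with the Dlk1-Dio3 microRNAs: 4 of the 5 were called lower in NSCs than in MEFs, and 4 than in ESCs. All 5 were at a Ct of at most 32 in ESCs, with a delta Ct from 0.78 to 3.79, against -0.32 to 2.58 in MEFs and 3.99 to 12.1 in NSCs. Summed over the list, the level stood at a delta Ct of -0.18 in ESCs, -1.67 in MEFs and 3.70 in NSCs. Their part in the result was not tested.

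The reference RNAs also moved. U6 came 2.59 and 2.56 cycles later in ESCs than in NSCs on the 2 plates, U1 2.31 and 2.60 cycles, and RNU43 0.99 and 1.11 cycles. Between MEFs and NSCs, U6 and U1 came 0.76 to 1.10 cycles later in MEFs and RNU43 0.78 and 0.80 cycles earlier. With RNU43 alone as the reference, 19 of 58 Dlk1-Dio3 microRNAs were lower in NSCs than in MEFs and 14 of 58 than in ESCs, with 0 higher. Over all microRNAs 60 of 685 and 76 of 678 were then lower, and 50 and 56 higher. The medians of the Dlk1-Dio3 microRNAs were -0.95 and -0.96 where those of all microRNAs rose to 0.67 and 0.56. The folds below 0 were then 39 and 36 of 58.

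Against MEFs and ESCs alike, NSCs were called lower for 16 of the 58 microRNAs, beside 9.31% of the 677 measured in all 3 samples. This count rests on the deposited MEF values and would not hold with the second set. The 16 were 61.5% of those lower than in MEFs and 94.1% of those lower than in ESCs, the one lower than in ESCs alone being miR-376b. Over all microRNAs, 63 were lower than in both, 95 than in MEFs and 101 than in ESCs. The 61.5% was thus no larger than the like share over all. Of the 16, 11 had a mean Ct above 32 in NSCs, where a level is known less precisely, and 5 (miR-540-3p, miR-411, miR-496, miR-541 and miR-409-3p) were at or below it in all 3 samples.

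The widest difference was at the start of the group from miR-379 to miR-410. For miR-379 the delta Ct of the runs was 10.01 and 10.23 in NSCs, 0.39 and 0.70 in MEFs and 0.95 and 0.91 in ESCs, which put the NSC wells far below the others while ESCs and MEFs lay close together. The log2 fold was -9.57 ± 0.19 against MEFs and -9.19 ± 0.11 against ESCs. For its neighbour miR-411 the runs were at 7.18 and 7.27 in NSCs, 1.20 and 1.52 in MEFs and 2.75 and 3.04 in ESCs, with a log2 fold of -5.87 ± 0.17 against MEFs and -4.34 ± 0.15 against ESCs. MEFs lay above ESCs here without reaching 4-fold. The other arm, miR-411*, was measured on plate 2 at 8.87 and 8.82 in NSCs, 3.84 and 4.32 in MEFs and 3.6 and 4.07 in ESCs, and its log2 fold was -4.76 ± 0.24 against MEFs and -5.01 ± 0.23 against ESCs.

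miR-299* stood at 8.56 and 8.82 in NSCs, 5.28 and 5.10 in MEFs and 5.52 and 6.03 in ESCs, a log2 fold of -3.50 ± 0.16 against MEFs and -2.91 ± 0.28 against ESCs. The runs of miR-380-5p were at 10.54 and 9.92 in NSCs, 5.34 and 5.51 in MEFs and 5.21 and 5.30 in ESCs, a log2 fold of -4.81 ± 0.33 against MEFs and -4.97 ± 0.32 against ESCs. Both had a delta Ct between 5.10 and 6.03 in ESCs and MEFs, so that these samples lay within 1 cycle of each other. miR-758 stood at 9.33 and 8.73 in NSCs, 6.03 and 5.97 in MEFs and 4.24 and 4.47 in ESCs, with a log2 fold of -3.03 ± 0.30 against MEFs and -4.67 ± 0.32 against ESCs, and was the one of these whose highest level was in ESCs by more than 2-fold. With RNU43 alone as the reference, miR-299* was not called against ESCs (-1.93) and miR-758 not against MEFs (-1.91). The calls were also lost for miR-299* against ESCs in run 2 alone and for miR-758 against MEFs with late wells at a Ct of 32.

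miR-376c, of the miR-376 family, whose precursors are known to be edited by ADAR enzymes in brain, gave no Ct in run 1 of NSCs and a delta Ct of 11.17 in run 2. In ESCs it stood at 4.55 and 4.29, and in MEFs at 3.53 and 3.6. The log2 fold from the single NSC well was -7.61 ± 0.04 against MEFs and -6.75 ± 0.13 against ESCs, with errors that carry nothing of the spread in NSCs.

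Further along, miR-382 had runs that lay within 0.05 cycles in each sample, at 8.12 and 8.17 in NSCs, 1.41 and 1.45 in MEFs and 1.78 and 1.82 in ESCs. Its log2 fold was -6.71 ± 0.03 against MEFs and -6.34 ± 0.03 against ESCs, the second lowest against ESCs among those with all wells measured. miR-485, which in rat neurons lowers the synaptic vesicle protein SV2A, stood at 11.11 and 9.09 in NSCs, 5.64 and 5.82 in MEFs and 6.10 and 5.60 in ESCs, and its log2 fold was -4.37 ± 1.01 against MEFs and -4.25 ± 1.04 against ESCs. Its NSC runs were 2.01 cycles apart and both lay below every ESC and MEF well.

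miR-154 stood at 8.88 and 9.38 in NSCs, 3.41 and 3.49 in MEFs and 3.34 and 3.48 in ESCs, with a log2 fold of -5.69 ± 0.25 against MEFs and -5.72 ± 0.26 against ESCs. Its runs in ESCs and MEFs overlapped. miR-496 stood at 7.81 and 8.18 in NSCs, 3.12 and 3.07 in MEFs and 3.36 and 3.34 in ESCs, with a log2 fold of -4.90 ± 0.19 against MEFs and -4.65 ± 0.18 against ESCs. The NSC wells of miR-496 were at a Ct of at most 32 on average, so its level was measured in every sample.

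miR-541, which is known to restrain neurite growth in a rat cell line through synapsin, was the smallest of the 16 differences. Its runs were at 5.55 and 5.49 in NSCs, 3.26 and 3.49 in MEFs and 3.45 and 3.42 in ESCs, a log2 fold of -2.15 ± 0.12 against MEFs and -2.08 ± 0.03 against ESCs, only just past 4-fold. With RNU43 alone or the mean of the microRNAs as the reference, with 1.9-fold amplification or, against MEFs, in run 2 alone, it was not called.

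Both arms of the miR-409 hairpin were lower in NSCs. miR-409-3p stood at 6.75 and 6.22 in NSCs, 2.59 and 2.66 in MEFs and 3.29 and 3.13 in ESCs, a log2 fold of -3.87 ± 0.27 against MEFs and -3.28 ± 0.28 against ESCs. miR-409-5p stood at 9.84 and 10.31 in NSCs, 5.62 and 6.19 in MEFs and 5.78 and 6.02 in ESCs, a log2 fold of -4.17 ± 0.37 against MEFs and -4.18 ± 0.27 against ESCs. The folds of the arms lay within 1 of each other on the log2 scale.

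On the side of the region near Meg3, 2 of the 10 assays belonged to the 16. miR-337-3p stood at 9.02 and 9.31 in NSCs, 4.78 and 5.12 in MEFs and 4.89 and 4.81 in ESCs, with a log2 fold of -4.22 ± 0.23 against MEFs and -4.32 ± 0.15 against ESCs. miR-540-3p stood at 7.27 and 7.09 in NSCs, 4.13 and 3.91 in MEFs and 4.57 and 4.21 in ESCs, with a log2 fold of -3.17 ± 0.14 against MEFs and -2.79 ± 0.20 against ESCs, and with RNU43 alone as the reference it fell short of 4-fold in both comparisons (-1.97 and -1.82).

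**Figure D3:**
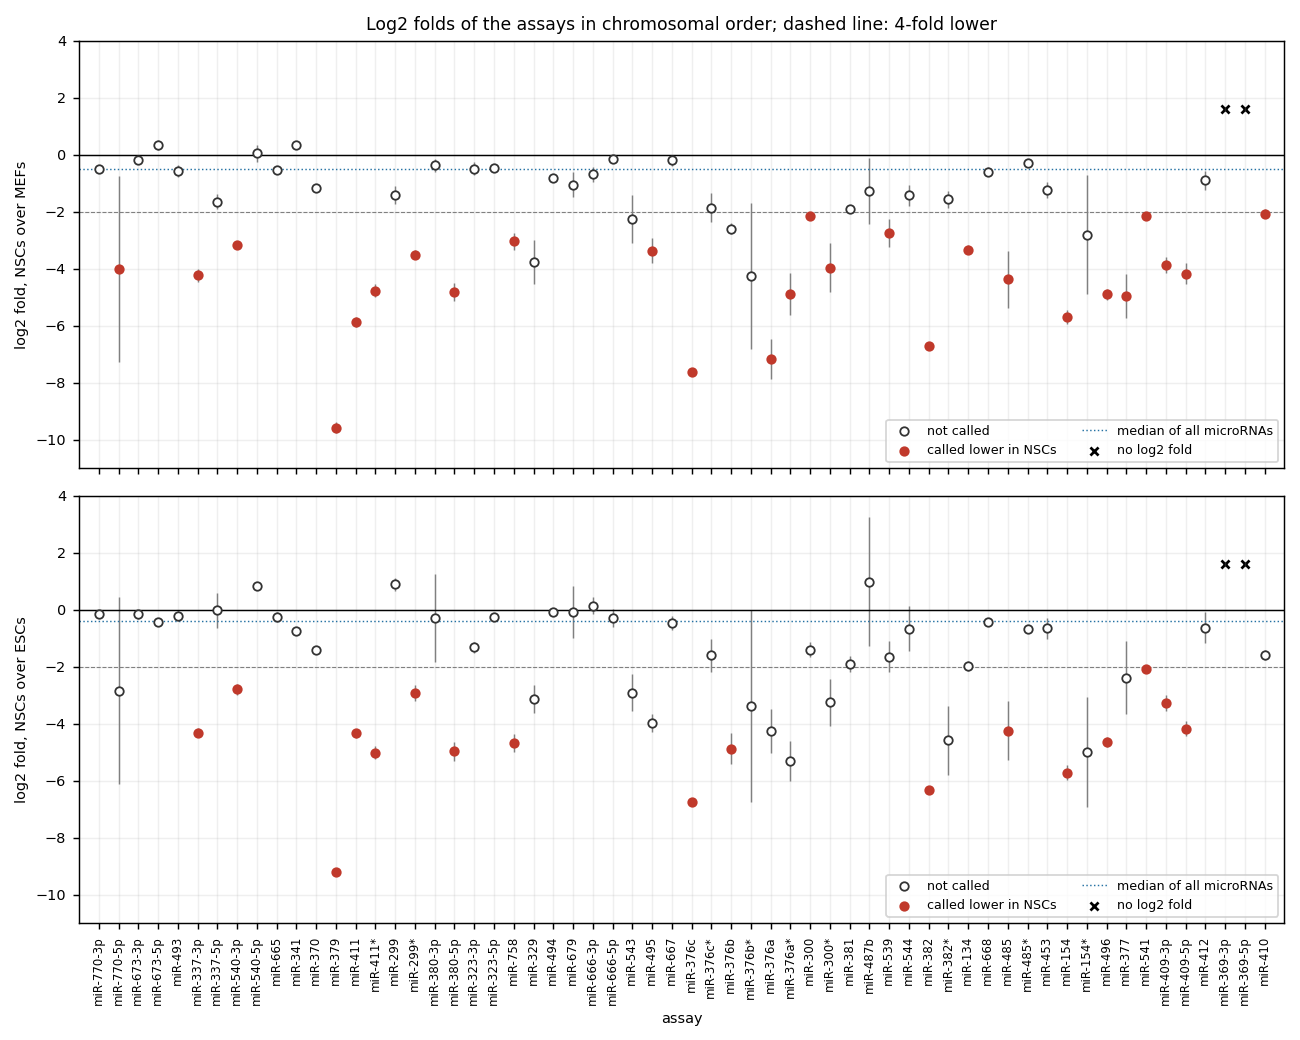
Log2 fold of the 60 assays in chromosomal order, for NSCs over MEFs (upper panel) and NSCs over ESCs (lower panel). Filled points were called lower in NSCs, bars are the error from the PCR runs, the dotted line is the median of all microRNAs and crosses mark the 2 assays with no value; the lowest point in both panels is miR-379, at -9.57 and -9.19.

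Other microRNAs were lower in NSCs than in 1 of the other samples only by these calls, and whether the 2 comparisons differ was not tested. miR-134, a brain microRNA that limits the size of dendritic spines in rat neurons and promotes differentiation in mouse ESCs, stood at 4.48 and 4.26 in NSCs, 0.92 and 1.17 in MEFs and 2.54 and 2.26 in ESCs. The log2 fold was -3.33 ± 0.17 against MEFs and -1.98 ± 0.18 against ESCs, so the second lay just short of 4-fold. miR-410, at the end of the group, stood at 7.28 and 7.05 in NSCs, 5.0 and 5.20 in MEFs and 5.70 and 5.44 in ESCs, with a log2 fold of -2.06 ± 0.15 against MEFs and -1.60 ± 0.17 against ESCs. The call against MEFs was lost with RNU43 alone (-0.86) and with the mean of the microRNAs as the reference (-1.25). It was also lost with 1.9-fold amplification and in run 2 alone.

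miR-495, which is known to target Bdnf, stood at 10.71 and 10.79 in NSCs, 6.95 and 7.83 in MEFs and 6.45 and 7.07 in ESCs. Its log2 fold was -3.36 ± 0.44 against MEFs and -3.99 ± 0.31 against ESCs, and the second was not called because the ESC wells averaged a Ct above 32. The NSC wells were the lowest in both cases. miR-376a stood at 11.23 and 12.62 in NSCs, 4.78 and 4.73 in MEFs and 8.01 and 7.34 in ESCs, a log2 fold of -7.17 ± 0.69 against MEFs and -4.25 ± 0.77 against ESCs, with the ESC wells again too late for a call and -2.92 ± 0.34 for ESCs over MEFs.

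miR-376b was at 10.97 and 10.62 in NSCs, 8.26 and 8.15 in MEFs and 5.39 and 6.44 in ESCs, and its log2 fold of -2.59 ± 0.18 against MEFs and -4.88 ± 0.55 against ESCs was called against ESCs alone. Its level was higher in ESCs than in MEFs (2.29 ± 0.53), which was lost with U1 alone as the reference (1.95), with late wells at a Ct of 32 (1.91) and in run 2 alone (1.71). The call of miR-376a between these samples was lost when miR-16 served as reference (-1.07) and with late wells at a Ct of 32 (-1.35). With the mean of the 3 small RNAs and both runs, miR-376a and miR-376b, whose mature sequences differ at 3 bases, were called in opposite directions between ESCs and MEFs. miR-376a* stood at 12.09 and 10.71 in NSCs, 6.25 and 6.75 in MEFs and 6.22 and 5.95 in ESCs, with a log2 fold of -4.90 ± 0.74 against MEFs and -5.31 ± 0.70 against ESCs, of which the first was called. That call was lost with late wells at a Ct of 32.

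miR-770-5p was called lower than in MEFs on runs that differed by 6.52 cycles in NSCs. Its wells were at 5.22 and 11.74 in NSCs, 4.53 and 4.45 in MEFs and 5.83 and 5.45 in ESCs, and the log2 fold was -3.99 ± 3.26 against MEFs and -2.84 ± 3.27 against ESCs. In run 1 alone the fold over MEFs was -0.69 and no call was made, so 1 NSC well decided it. With RNU43 alone it was not called either.

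Among microRNAs with a role in activity-dependent growth of dendrites in rat neurons are miR-134, miR-329 and miR-381. miR-329 stood at 12.15 and 11.74 in NSCs, 8.92 and 7.44 in MEFs and 9.25 and 8.38 in ESCs, with a log2 fold of -3.76 ± 0.77 against MEFs and -3.13 ± 0.48 against ESCs, and was not called since it was above a Ct of 32 in every sample. miR-381 stood at 6.64 and 6.46 in NSCs, 4.73 and 4.58 in MEFs and 4.39 and 4.92 in ESCs, and its log2 fold of -1.9 ± 0.12 against MEFs and -1.89 ± 0.28 against ESCs lay just short of 4-fold both times. The 3 of them thus had lower NSC wells in both comparisons, with 1 call in all, that of miR-134 against MEFs. With U6 or U1 alone as the reference miR-381 was called in both comparisons (-2.41 and -2.52 with U6, -2.58 and -2.24 with U1), and miR-134 against ESCs too (-2.60 and -2.32).

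In all, 5 microRNAs were at least 4-fold lower than in MEFs and not called, each because MEFs were above a Ct of 32. Against ESCs there were 11, of which 10 were too late in ESCs and 1, miR-770-5p, was early enough but had runs that overlapped. miR-376b* was among both, with wells at 10.42 and 15.54 in NSCs, 8.74 and 8.69 in MEFs and 7.40 and 11.78 in ESCs and a log2 fold of -4.26 ± 2.56 against MEFs and -3.39 ± 3.37 against ESCs. Its NSC and ESC runs overlapped too, and gaps of more than 4 cycles between its runs in NSCs and in ESCs left its level poorly defined.

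A number of the microRNAs were at like levels in all 3 samples: 15 of 58 lay within 2-fold in every comparison, beside 249 of 677 over all. With other references it was 0 to 18 of 58, 18 with RNU43 alone and 0 with miR-16. They included the assay with the earliest Ct, miR-494. Its runs were at -4.86 and -4.91 in NSCs, -5.72 and -5.71 in MEFs and -4.92 and -5.0 in ESCs, and the log2 fold was -0.83 ± 0.02 against MEFs and -0.07 ± 0.05 against ESCs, and with RNU43 alone it turned to 0.37 and 0.90. On the Meg3 side they included miR-770-3p, at 1.87 and 1.9 in NSCs, 1.40 and 1.35 in MEFs and 1.63 and 1.80 in ESCs, with a log2 fold of -0.51 ± 0.03 against MEFs and -0.17 ± 0.09 against ESCs.

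Both arms of miR-673 were among them. miR-673-3p stood at 5.68 and 5.41 in NSCs, 5.31 and 5.42 in MEFs and 5.32 and 5.42 in ESCs, a log2 fold of -0.17 ± 0.15 against MEFs and -0.17 ± 0.14 against ESCs. miR-673-5p stood at 4.13 and 4.16 in NSCs, 4.32 and 4.64 in MEFs and 3.72 and 3.71 in ESCs, a log2 fold of 0.34 ± 0.16 against MEFs and -0.43 ± 0.01 against ESCs, one of the 3 assays above 0 against MEFs, the others being miR-341 and miR-540-5p.

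Both arms of miR-666 lay within 2-fold too. miR-666-3p stood at 7.36 and 7.19 in NSCs, 6.33 and 6.85 in MEFs and 7.15 and 7.69 in ESCs, a log2 fold of -0.69 ± 0.27 against MEFs and 0.14 ± 0.29 against ESCs. miR-666-5p stood at 4.86 and 4.87 in NSCs, 4.68 and 4.73 in MEFs and 4.89 and 4.26 in ESCs, a log2 fold of -0.16 ± 0.03 against MEFs and -0.29 ± 0.32 against ESCs. Neither arm came near a call. miR-323-3p, of the same stretch, was also not called, at 4.57 and 4.69 in NSCs, 3.94 and 4.35 in MEFs and 3.12 and 3.48 in ESCs, with a log2 fold of -0.48 ± 0.21 against MEFs and -1.33 ± 0.19 against ESCs. Its level was highest in ESCs.

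Near Rian lie miR-341 and miR-370, and neither was called. miR-341 stood at 2.87 and 2.70 in NSCs, 3.09 and 3.15 in MEFs and 2.09 and 1.99 in ESCs, a log2 fold of 0.34 ± 0.09 against MEFs and -0.75 ± 0.10 against ESCs, with its highest level in ESCs. miR-370, which in human liver cells targets the fatty acid oxidation enzyme CPT1A, stood at 0.73 and 0.74 in NSCs, -0.49 and -0.37 in MEFs and -0.64 and -0.69 in ESCs, a log2 fold of -1.17 ± 0.06 against MEFs and -1.40 ± 0.03 against ESCs. Its NSC wells were the lowest by more than 2-fold, with runs no farther apart than 0.12 cycles. This depended on the reference, since the fold of miR-370 against MEFs was 0.029 with RNU43 alone and -0.35 with the mean of the microRNAs, and with U6 alone it was called lower than in ESCs (-2.03). For miR-341 the fold against MEFs turned to -0.18 with U6 alone.

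By place along the region, 3 of the 10 assays on the Meg3 side were lower in NSCs than in MEFs and 2 than in ESCs, with median log2 folds of -0.55 and -0.23. In the group from miR-379 to miR-410, 23 and 15 of 46 were lower, with medians of -2.67 and -2.65. Of the 9 measured assays of the Rtl1 antisense group between them, 6 and 3 were lower, with medians of -4.02 and -3.34. By arm, 14 of 22 assays of 5p arms were lower than in MEFs and 9 than in ESCs (medians -3.73 and -2.88), and 12 and 8 of 35 of 3p arms (medians -1.57 and -1.41). By plate, the medians were -2.15 and -1.65 for the assays on plate 1, where all microRNAs had -0.64 and -0.46, and -2.80 and -2.91 on plate 2, where all had -0.38 and -0.39. On each plate the median of the Dlk1-Dio3 microRNAs was the lower one. None of these splits was tested.

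For 18 hairpins both arms were assayed, and for 17 both were measured in every sample. Against MEFs both arms were lower in NSCs for 4 hairpins, 1 arm for 9 and neither for 4. Against ESCs the counts were 2, 9 and 6, the 2 being miR-409 and miR-411. The log2 folds of the arms differed by a median of 2.27 against MEFs and 1.75 against ESCs, and by at least 2 for 10 and 7 hairpins. They lay within 1 of each other for 4 and 5 hairpins.

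Against the called miR-337-3p stood miR-337-5p, at 7.90 and 8.42 in NSCs, 6.5 and 6.53 in MEFs and 8.71 and 7.57 in ESCs, with a log2 fold of -1.65 ± 0.26 against MEFs and -0.02 ± 0.62 against ESCs. Likewise miR-540-5p stood at 7.04 and 6.99 in NSCs, 7.37 and 6.77 in MEFs and 7.80 and 7.91 in ESCs, with a log2 fold of 0.06 ± 0.30 against MEFs and 0.84 ± 0.06 against ESCs. Neither 5p arm was called, and the NSC and MEF runs of miR-540-5p overlapped. miR-485* stood at 4.47 and 4.58 in NSCs, 4.27 and 4.19 in MEFs and 3.82 and 3.90 in ESCs, with a log2 fold of -0.29 ± 0.07 against MEFs and -0.67 ± 0.07 against ESCs, where miR-485, on the other plate, was called in both comparisons.

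In other pairs the arm that was not called came late in all samples. miR-380-3p stood at 11.05 and 10.91 in NSCs, 10.81 and 10.40 in MEFs and 9.14 and 12.22 in ESCs, a log2 fold of -0.37 ± 0.22 against MEFs and -0.29 ± 1.54 against ESCs. miR-299 stood at 10.78 and 10.34 in NSCs, 9.37 and 8.91 in MEFs and 11.52 and 11.37 in ESCs, a log2 fold of -1.42 ± 0.32 against MEFs and 0.89 ± 0.23 against ESCs. At such levels a difference could not be detected reliably, and the ESC runs of miR-380-3p were 3.08 cycles apart. miR-487b, assayed on 1 arm, was as late, at 9.15 and 11.39 in NSCs, 8.69 and 9.31 in MEFs and 9.28 and 13.24 in ESCs, with a log2 fold of -1.27 ± 1.16 against MEFs and 0.99 ± 2.28 against ESCs.

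miR-376c* stood at 12.51 and 12.57 in NSCs, 11.20 and 10.17 in MEFs and 11.51 and 10.36 in ESCs, a log2 fold of -1.85 ± 0.52 against MEFs and -1.60 ± 0.58 against ESCs. miR-154* stood at 11.36 and 15.23 in NSCs, 11.29 and 9.70 in MEFs and 8.22 and 8.39 in ESCs, a log2 fold of -2.80 ± 2.09 against MEFs and -4.99 ± 1.94 against ESCs. Both were late everywhere. miR-382*, with no Ct in run 1 of MEFs, stood at 15.29 and 14.68 in NSCs, 11.58 and 9.21 in ESCs and 13.42 in the single MEF well, a log2 fold of -1.57 ± 0.31 against MEFs and -4.59 ± 1.22 against ESCs.

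**Figure D4:**
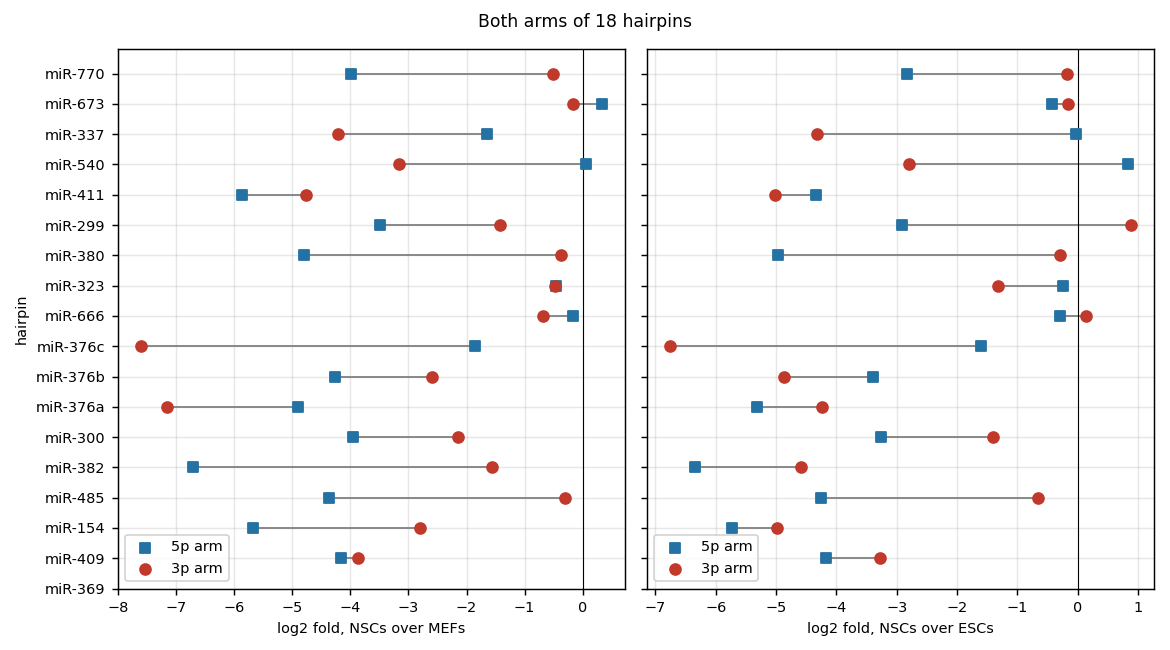
Log2 fold of the 5p arm (squares) and 3p arm (circles) of 18 hairpins, joined by a line, for NSCs over MEFs (left) and NSCs over ESCs (right). The row of miR-369 is empty because neither arm was measured in NSCs; miR-376c has the longest line in the left panel, 5.75, and miR-409 and miR-411 have both arms to the left of -3.

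The last hairpin with both arms assayed was miR-369, known for its use with other microRNAs in reprogramming to pluripotency. miR-369-5p gave no Ct in either NSC run, whereas it stood at 3.03 and 2.74 in ESCs and 3.42 and 3.30 in MEFs. No fold can be given against NSCs, and it was the one microRNA of the 60 that was at a Ct of at most 32 in both other samples and at no Ct in NSCs. miR-369-3p gave a Ct in 1 MEF well alone, at 40.0 cycles. The remaining members, apart from these 2 assays, were 14, whose log2 folds ran from -4.95 to -0.19 against MEFs and, against ESCs, from -3.26 to -0.09. Of these 14, miR-300, miR-300*, miR-539 and miR-377 were called lower than in MEFs and 0 lower than in ESCs.

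A larger share of the microRNAs under 50% G and C was called lower than of those at or above it. The share of G and C in the 57 sequences ran from 23.8% to 72.7% (median 47.6%), and they were split at 50% after their values had been seen. Of the 28 measured ones under 50%, 17 were lower in NSCs than in MEFs and 11 than in ESCs, with median log2 folds of -3.43 and -3.69. Of the 27 at 50% or more, 7 and 4 were lower, with medians of -0.69 and -0.47. Of the 16 lower than in both MEFs and ESCs, 14 had a sequence, 10 of them under 50%. Their median share was 47.5%, near that of the 57 sequences. Among the other microRNAs that RefSeq lists under the same name, 5 of 71 and 6 of 67 were lower under 50%, and 5 of 99 each time at 50% or more. These are only a part of the others, since older names were matched for the Dlk1-Dio3 microRNAs alone. Over all others, with or without a sequence, 69 of 627 and 84 of 620 were lower. Among the 15 Dlk1-Dio3 microRNAs that lay within 2-fold in every comparison, 13 had 50% or more. By single comparison, 15 of 27 at 50% or more and 2 of 28 under it lay within 2-fold of MEFs. Against ESCs it was 18 of 27 and 3 of 28. The others with a sequence leaned the same way, with 77 of 99 and 45 of 71 against MEFs and 75 of 99 and 33 of 67 against ESCs.

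Across the 55 microRNAs with a sequence and a fold, Spearman's rho between the G and C share and the log2 fold was 0.50 over MEFs and 0.53 over ESCs. For the other microRNAs that RefSeq lists under the same name it was -0.02 (170 microRNAs) and -0.07 (166). The Dlk1-Dio3 microRNAs also entered under older names, so the sets were not chosen alike, and whether they differ was not tested. Within the 24 Dlk1-Dio3 microRNAs at a Ct of at most 32 in all samples it was 0.59 and 0.52, and within the group from miR-379 to miR-410 it was 0.36 and 0.39 (43 microRNAs). The level moved with base composition as well: rho between the G and C share and the delta Ct was -0.77 in NSCs, -0.51 in ESCs and -0.56 in MEFs among the Dlk1-Dio3 microRNAs, and -0.50, -0.41 and -0.49 among the others. The points share the 3 samples, the reference RNAs and, in part, a hairpin, so these are descriptions, and the part of base composition in the folds was not tested.

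**Figure D5:**
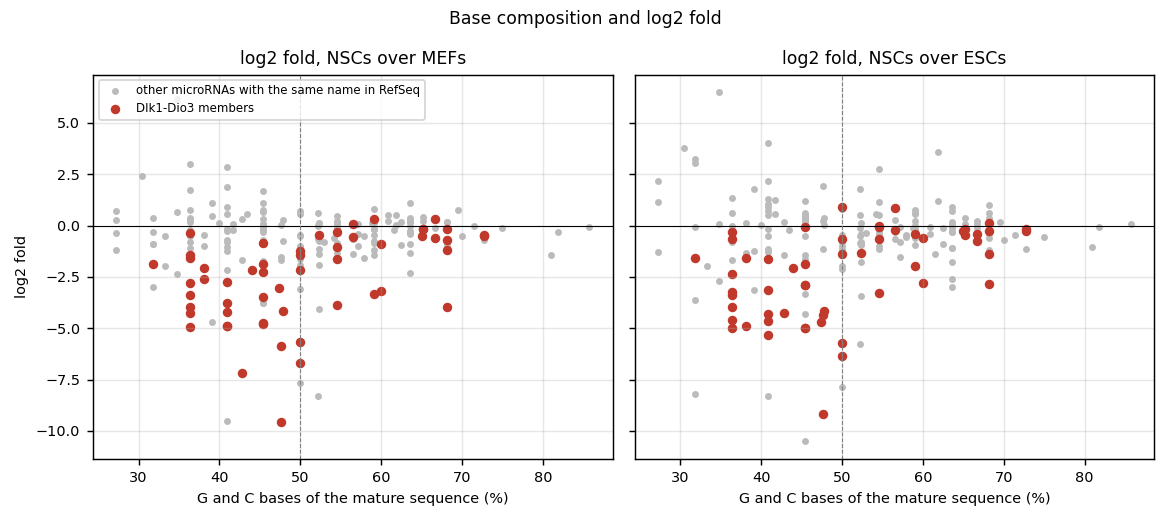
Share of G and C bases in the mature sequence (%) against the log2 fold for NSCs over MEFs (left) and NSCs over ESCs (right), for the Dlk1-Dio3 microRNAs (red) and the others with the same name in RefSeq (grey). The dashed line marks 50%; red points under it have medians of -3.43 and -3.69, and those at or over it -0.69 and -0.47.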

How the data were processed

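The deposited tables hold the authors' Ct values, 1 per well, from a SYBR Green qRT-PCR set (System Biosciences, based on miRBase version 14), with poly-A tailing and an oligo-dT adaptor before reverse transcription. These Ct, in PCR cycles and not normalized, are scores on a log2 scale for which the deposited tables state no threshold. A delta Ct (mean Ct minus the mean of U6, RNU43 and U1 of the plate and sample) was computed from them. The deposited delta Ct equals it except for ESCs on plate 1, where 6.90 cycles more had been subtracted, so it was not used. The deposited folds and p-values of the authors' own comparisons were not used.

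Doubling per cycle was assumed for log2 folds. Errors combine, in quadrature, the standard error of the runs of both samples, or of 1 sample where the other had a single run. Wells with no Ct were left out, and 1 member well above 40 cycles was kept. Wells without template gave no Ct. Precision was limited by the 2 runs per sample. The computation was tested on simulated Ct values with early Ct where the level was higher, close runs and large changes. Missing wells, levels too late for a call and differences near 4-fold were not simulated. Older assay names without an arm were matched to a mature arm from general knowledge of miRBase. Per-well values were given for members lower than in both samples, the 5 highest and 5 lowest folds, hairpins whose arms differed in call, and members with a known role. The members and lists were chosen with earlier results of these data known. Alternatives were single reference RNAs, miR-16, the mean of the microRNAs, limits on late wells, single runs, runs within 1 cycle and 1.9-fold amplification. Scripts ran in Python 3.11.15 (matplotlib 3.10.9, scipy 1.17.1, numpy 2.4.6, pandas 2.3.3).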

Additional observations from a re-analysis of the deposited data

How the results depend on the processing

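No paired analysis was possible because each cell type was 1 sample. No member was called higher in NSCs under any of the 12 alternatives. With each reference RNA alone, the median log2 fold of the members for NSCs over MEFs, NSCs over ESCs and ESCs over MEFs was -2.66, -2.56 and -0.16 (U6), -0.95, -0.96 and -0.048 (RNU43), and -2.83, -2.28 and -0.59 (U1, with 0 higher in ESCs than in MEFs). It was -1.38, -1.26 and -0.21 with the mean of the microRNAs. With miR-16 it was -2.93, -4.56 and 1.57, with 37 of 58 lower in NSCs than in ESCs (334 of 678 over all, median -2.96), and 0 lower and 9 of 59 higher in ESCs than in MEFs (161 of 679 over all higher, median 1.6).

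With 32 taken as the Ct of wells that were later or gave none, and microRNAs late in both samples given no fold, the medians over MEFs were -1.47 for NSCs and 0.021 for ESCs, with 0 lower and 0 higher in ESCs than in MEFs. With late microRNAs left out, 8 were lower than in MEFs, 5 than in ESCs and 5 than in both, the medians were -0.64, -0.71 and -0.18, and 0 were lower and 0 higher in ESCs than in MEFs. Fewer microRNAs then have a value (26, 24 and 37). With runs within 1 cycle the medians in NSCs were -1.53 and -1.50, and 1 was lower and 0 higher in ESCs than in MEFs. Run 1 alone gave -1.79 over MEFs. Run 2 alone gave -2.0, -2.08 and -0.22, with 1 lower and 0 higher in ESCs than in MEFs. With 1.9-fold amplification the medians in NSCs were -1.99 and -1.79, and with the call limit at a Ct of 35, 2 were higher in ESCs than in MEFs. Where not explained by fewer values, the cause was not tested.

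For the 44 members with per-well values, 132 folds were followed, of which 41 were called. Over the alternatives, 1379 values stayed on the same side of the call limits, 47 came to be called and 28 lost a call. The remaining values, some of them of called folds, had no fold under the alternative and are in none of these counts. Of the 1379, 114 that were not called turned in direction, and 0 called folds did. No call rests on separate cultures, and the median gap between runs of late members was 0.61 cycles in NSCs, 0.86 in ESCs and 0.54 in MEFs.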
